A study of Mus musculus with 9 samples.

Results

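Sirtuins are enzymes that remove acetyl or longer acyl groups from lysines of proteins, and they spend a molecule of NAD+ on each group they remove. The family of the mouse has 7 genes, Sirt1 to Sirt7. A gene was taken as measured when a probe set carried its symbol and no other, and the brightest probe set over all arrays would have stood for a gene with several. By this rule 6 of the 7 members were found among 14860 genes, each with 1 probe set, and Sirt4 was not analysed here. The arrays were hybridised with RNA of perigonadal white fat, which lies next to the gonads, taken from mice aged 4 months. There were 3 homozygous G609G/G609G samples, 3 homozygous LCS/LCS samples and 3 wild-type (wt) samples. G609G is known as a mutation of Lmna that makes cells produce progerin, a shortened lamin A, and serves as a mouse model of a premature ageing disease. LCS is known as a Lmna allele from which lamin C but no lamin A is made, although the labels do not spell the name out. Strain, sex and pooling of animals are not given in the sources used here. Both alleles are carried by the whole animal. The p-values reflect only how far samples of a genotype spread, which may in part be technical.

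Because sirtuins need NAD+, their activity is tied to the supply of this cofactor, and they are known as sensors of fasting and energy state. The nicotinamide they release is turned back into NAD+ by NAMPT. SIRT1, SIRT6 and SIRT7 are mainly nuclear, SIRT2 is mainly cytosolic, and SIRT3, SIRT4 and SIRT5 are mitochondrial. In fat, SIRT1 is known to act on PPARG and PGC-1alpha and to favour the release of stored lipid, and SIRT1 and SIRT6 have both been reported to bind lamin A.

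The arrays differed in ways that touch every value below. The median signal of an array was 5.94 to 6.01 (log2) in G609G/G609G, 6.31 to 6.37 in LCS/LCS and 6.36 to 6.45 in wt, so each result was computed under 3 scalings: the deposited values, quantile normalization, which gives all arrays 1 distribution, and centring of each array on its median. The median change over all genes in G609G/G609G against wt was -0.28 (log2) as deposited, and it was 0.02 with quantile normalization and 0.14 with median centring. Tissue makeup differed as well. All 11 measured skeletal muscle markers were higher in G609G/G609G than in wt, and their summed linear signal was 40652 to 42026 in G609G/G609G, 2144 to 2197 in LCS/LCS and 921 to 1009 in wt. Of 10 mature adipocyte markers 8 were lower in G609G/G609G, with sums of 49756 to 50941 in G609G/G609G, 77716 to 78611 in LCS/LCS and 70909 to 71951 in wt, so adipocyte transcripts were present in every genotype. Of 10 epididymal markers 9 were lower in G609G/G609G (11193 to 11536 in G609G/G609G, 51882 to 52656 in LCS/LCS and 56993 to 58359 in wt). In each mutant 14 of 15 markers of testis and germ cells were lower than in wt (4548 to 4674 in G609G/G609G, 1007 to 1119 in LCS/LCS and 9547 to 10375 in wt). In LCS/LCS 9.77% of all genes were called lower as deposited. Macrophage markers were lower in 7 of 8 cases in G609G/G609G (1740 to 1966 in G609G/G609G, 5155 to 5428 in LCS/LCS and 4099 to 4476 in wt), and so were 9 of 10 markers of progenitors and fibroblasts (14020 to 14503 in G609G/G609G, 22924 to 23011 in LCS/LCS and 20550 to 20848 in wt). The 8 brown adipocyte markers, of which 4 were higher and 1 lower in G609G/G609G, summed to 3915 to 3976 in G609G/G609G, 1092 to 1144 in LCS/LCS and 1194 to 1313 in wt, and Ppargc1a, described below as a sirtuin target, is one of them. Their mean log2 signal differed less, at 6.405 to 6.476 in G609G/G609G, 5.716 to 5.734 in LCS/LCS and 6.0 to 6.1 in wt. Muscle also expresses Ppargc1a. Of 9 endothelial markers 3 were higher and 3 lower in G609G/G609G (6170 to 6480 in G609G/G609G, 6967 to 7367 in LCS/LCS and 5697 to 6297 in wt), and of 9 lymphocyte markers none was higher and 4 were lower (329 to 340 in G609G/G609G, 605 to 621 in LCS/LCS and 512 to 574 in wt). These calls are as deposited, where 10.5% of all genes were higher and 53.5% lower in G609G/G609G against wt. Under all 3 scalings 5 of 10 mature adipocyte, 5 of 8 macrophage and 2 of 9 lymphocyte markers were lower (25.5% of all genes). All 11 muscle markers stayed higher, and 9 epididymal, 9 progenitor and fibroblast and 11 testis markers stayed lower. After quantile normalization and after median centring 7 endothelial markers were higher and none lower. The part of these tissues and cell types in the sirtuin results was not tested. In bulk tissue, fewer cells of a type and less RNA per cell cannot be told apart.

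In G609G/G609G fat Sirt1 was higher than in wt and Sirt6 was lower, under each of the 3 scalings. As deposited, limma called all 6 sirtuins (adjusted p of at most 0.05), with 1 higher and 5 lower, where 10.5% of all genes were called higher and 53.5% were called lower. After quantile normalization 1 was called higher and 2 lower, against 28.5% and 29.5% of all genes, and after median centring 1 and 1, against 43.9% and 27.6%. Under all 3 scalings 1 of 6 was called higher and 1 lower, where 10.2% and 25.5% of all genes were, so the number of sirtuins called was near the background. The median change of the 6 sirtuins was -0.51 as deposited and -0.06 after quantile normalization. In LCS/LCS fat none of the 6 was called as deposited or after quantile normalization. The moderated F test over the 3 genotypes called 6 of 6 as deposited, where it called 66.8% of all genes, and 3 of 6 after quantile normalization, where it called 64.8%. After median centring it called 5 of 6, and the share of all genes was not computed there.

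**Figure D1:**
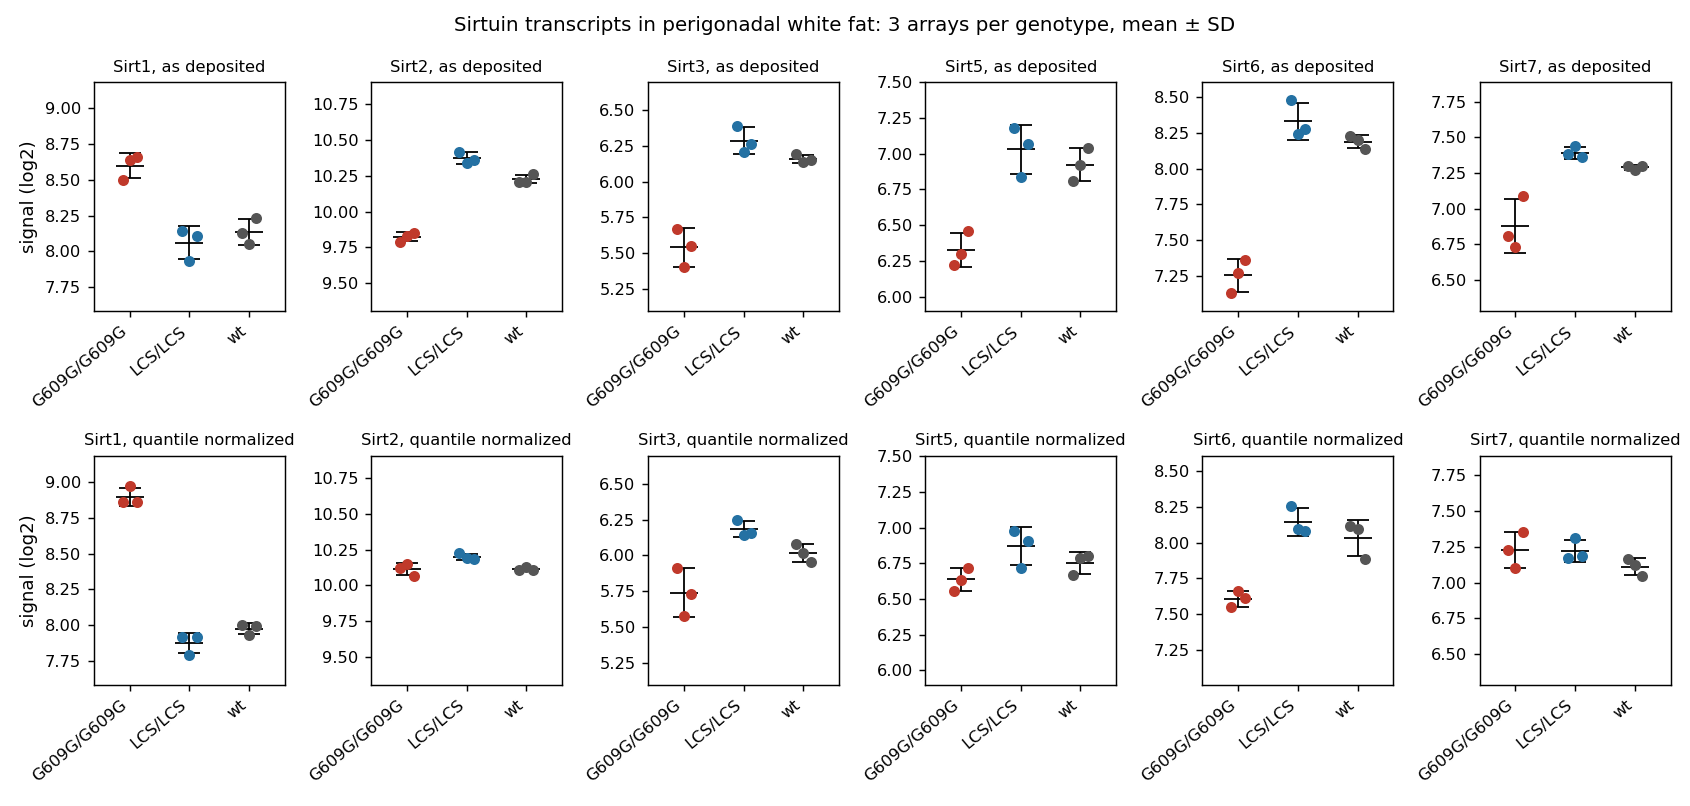
Log2 signal of each measured sirtuin on each of the 9 arrays, by genotype, with deposited values above and quantile-normalized values below; points are arrays, and bars are group means with their SD. On the deposited scale the G609G/G609G arrays lie above the other arrays for Sirt1 and below them for the other 5 genes, and after quantile normalization they stay above for Sirt1 and below for Sirt6 and Sirt3.

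Sirt1 (probe set 6774451, chromosome 10) encodes the founding mammalian member, a nuclear deacetylase of histones, p53, FOXO factors and PGC-1alpha. Its deposited log2 signal was 8.50, 8.64 and 8.66 on the G609G/G609G arrays, 8.14, 7.93 and 8.11 on the LCS/LCS arrays and 8.13, 8.05 and 8.23 on the wt arrays. Every G609G/G609G array lay above every other array, while LCS/LCS and wt overlapped. The change in G609G/G609G against wt was 0.46 (SE 0.08, limma adjusted p = 0.00146), a 1.38-fold difference. After quantile normalization the values were 8.86, 8.97 and 8.86 in G609G/G609G, 7.91, 7.79 and 7.91 in LCS/LCS and 8.002, 7.93 and 7.99 in wt. The change there was 0.92 (SE 0.05, adjusted p = 4.7e-06), or 1.90-fold, and after median centring it was 0.89. Both scalings gave a larger change than the deposited values did. As deposited, 93.5% of all genes had a lower change than Sirt1 in this comparison, and after quantile normalization 95.3% did.

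Sirt6 (probe set 6775480, chromosome 10) encodes a chromatin-bound deacetylase that acts in DNA repair and represses glycolytic genes, and mice without it age prematurely. It read 7.13, 7.27 and 7.36 on the G609G/G609G arrays, 8.48, 8.24 and 8.28 on the LCS/LCS arrays and 8.23, 8.20 and 8.14 on the wt arrays. All G609G/G609G arrays lay below all others. The change in G609G/G609G against wt was -0.94 (SE 0.08, adjusted p = 3.12e-05), a 1.91-fold lower signal. After quantile normalization Sirt6 read 7.55, 7.66 and 7.61 in G609G/G609G, 8.26, 8.10 and 8.08 in LCS/LCS and 8.12, 8.09 and 7.89 in wt, and the change was -0.42 (SE 0.08, adjusted p = 0.00261). After median centring it was -0.51 (adjusted p = 0.000686). In this comparison 14.7% of all genes had a lower change than Sirt6 as deposited, and 18.95% after quantile normalization.

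The 250 bases before a RefSeq transcript start of Sirt1 and of Sirt6 are shown because these are the members called under every scaling in G609G/G609G against wt, in opposite directions. They come from RefSeq's promoter windows on GRCm38.p6, chr10:63339036-63339285 and chr10:81627567-81627816, and both genes lie on the minus strand, so each sequence is the reverse complement of the chromosome, 5′ to 3′. The Sirt1 window lies outside the annotated gene, whereas 226 of the 250 bases of the Sirt6 window lie inside the RefSeq span of its gene. Capitals mark matches on either strand to any of 5 short motifs: the E-box CACGTG, the GC box GGGCGG, the ETS core CCGGAAG, the palindromic NRF1 site and the FOXO site TGTTTAC.
Sirt1: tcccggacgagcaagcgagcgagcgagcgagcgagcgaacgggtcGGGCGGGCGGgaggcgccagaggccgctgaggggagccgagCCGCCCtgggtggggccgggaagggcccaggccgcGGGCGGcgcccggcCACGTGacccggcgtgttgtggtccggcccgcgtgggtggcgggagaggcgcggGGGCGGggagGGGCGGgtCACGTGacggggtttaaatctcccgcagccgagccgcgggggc
Sirt6: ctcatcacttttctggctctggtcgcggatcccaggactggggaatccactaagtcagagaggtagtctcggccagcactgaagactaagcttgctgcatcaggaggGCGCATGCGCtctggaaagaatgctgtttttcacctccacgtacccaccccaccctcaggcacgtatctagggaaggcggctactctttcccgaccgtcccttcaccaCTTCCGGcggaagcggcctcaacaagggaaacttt
The Sirt1 window held 2 E-boxes and 6 GC boxes, a pair of which overlap, and the Sirt6 window shown held 1 NRF1 site and 1 ETS core, which reads CTTCCGG on this strand. Of 32851 windows of the same length, 6.02% held the E-box, 32.7% the GC box, 6.91% the ETS core, 0.782% the NRF1 site and 3.17% the FOXO site, which neither sequence held. A further Sirt6 window, chr10:81627323-81627572, lies wholly inside the gene and held 1 GC box and none of the other motifs. The ETS core was also found once each in windows of Sirt3 and Sirt7. GC boxes were found in windows of Sirt2, Sirt3, Sirt5 and Sirt7 as well, so the motif was not particular to Sirt1.

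Sirt7 (probe set 6792787, chromosome 11), the nucleolar member, which acts on ribosomal RNA transcription, had no settled direction. Its signals were 6.81, 6.73 and 7.09 in G609G/G609G, 7.38, 7.44 and 7.36 in LCS/LCS and 7.30, 7.27 and 7.30 in wt. The G609G/G609G arrays were below the wt arrays as deposited (-0.41, SE 0.09, adjusted p = 0.00479). They overlapped them after quantile normalization (0.11, adjusted p = 0.242) and after median centring (0.01, adjusted p = 0.909).

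Sirt2 (probe set 6959452, chromosome 7), which deacetylates alpha-tubulin in the cytosol and is known to restrain adipocyte differentiation, was brighter than 94.8% of all probe sets. It read 9.79, 9.83 and 9.85 in G609G/G609G, 10.42, 10.34 and 10.36 in LCS/LCS and 10.21, 10.21 and 10.26 in wt, with no overlap between any 2 genotypes. The deposited change in G609G/G609G against wt was -0.40 (SE 0.05, adjusted p = 0.000172). Quantile normalization brought it to -0.003 (95% interval -0.09 to 0.09, adjusted p = 0.952), with values of 10.12, 10.15 and 10.07 in G609G/G609G and 10.11, 10.13 and 10.11 in wt, and median centring to 0.02 (adjusted p = 0.664). The call of Sirt2 was made on the deposited values only.

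Sirt3 (probe set 6972156, chromosome 7) encodes the main mitochondrial deacetylase, which acts on enzymes of fatty acid oxidation and on superoxide dismutase. Its signals were 5.67, 5.40 and 5.55 in G609G/G609G, 6.39, 6.21 and 6.26 in LCS/LCS and 6.19, 6.14 and 6.15 in wt. Sirt3 was the dimmest of the measured sirtuins, brighter than 46.9% of all probe sets. On each G609G/G609G array its signal lay below the array median. The G609G/G609G arrays were the lowest, and the change against wt was -0.62 (SE 0.08, adjusted p = 0.000254). After quantile normalization it was -0.28 (SE 0.09, adjusted p = 0.0299) and after median centring -0.20 (adjusted p = 0.0632), when the groups overlapped. With 1 array left out, the quantile-normalized change ran from -0.37 to -0.20, and its call was lost without G609G/G609G replicate 2 (adjusted p = 0.0706) or 3 (0.0641) and without wt replicate 1 (0.0923) or 2 (0.0715).

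Sirt5 (probe set 6806610, chromosome 13), which removes succinyl, malonyl and glutaryl groups from mitochondrial enzymes, read 6.22, 6.30 and 6.46 in G609G/G609G, 7.18, 6.84 and 7.07 in LCS/LCS and 6.81, 6.92 and 7.04 in wt. As deposited G609G/G609G lay below both other genotypes, which overlapped, and the change against wt was -0.60 (SE 0.11, adjusted p = 0.00171). It was -0.12 after quantile normalization (adjusted p = 0.271) and -0.17 after median centring (adjusted p = 0.108).

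**Figure D2:**
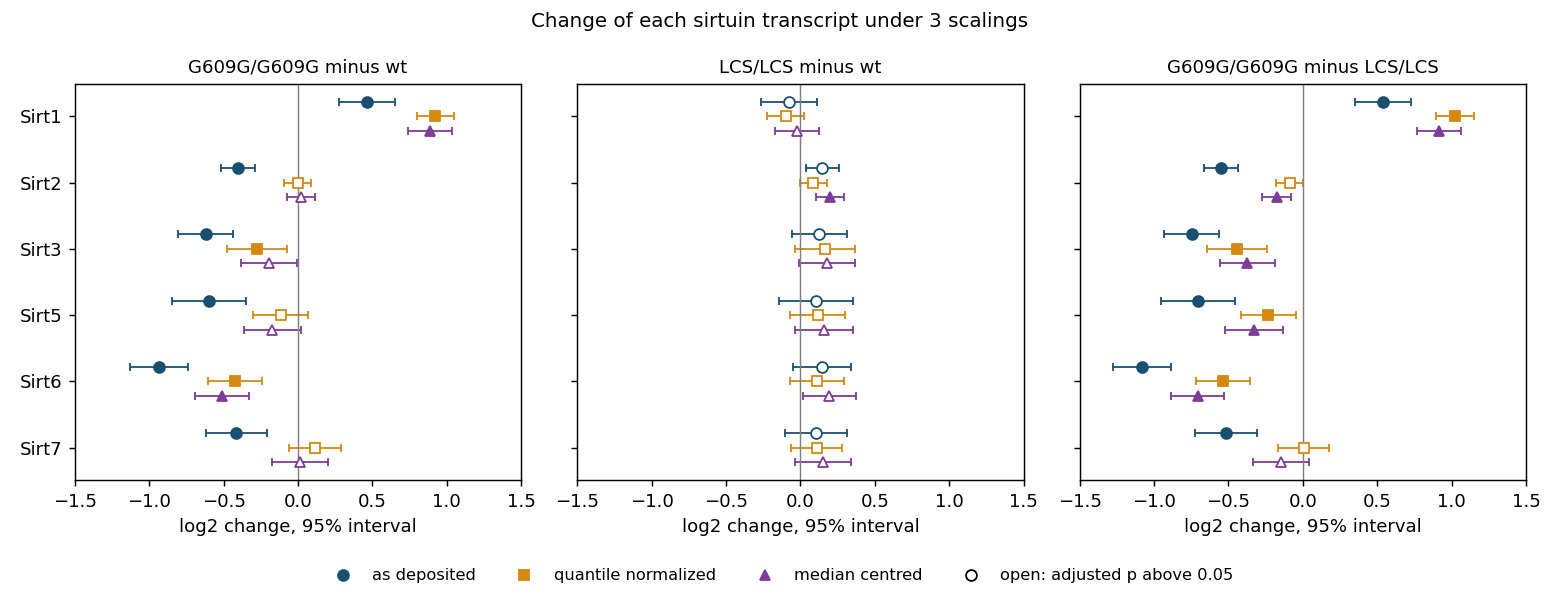
Log2 change of each sirtuin in each of the 3 comparisons under each of the 3 scalings; points are estimates and lines their 95% intervals, with open symbols where the adjusted p was above 0.05. Sirt1 lies above 0 and Sirt6 below 0 in both comparisons of G609G/G609G under all 3 scalings. The intervals of Sirt2, Sirt5 and Sirt7 cover 0 in G609G/G609G against wt once the arrays are scaled.

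A difference between genes on the same array does not depend on how arrays are shifted against each other. Sirt1 minus the mean of the other 5 sirtuins was 1.38, 1.53 and 1.40 (log2) in G609G/G609G, 0.17, 0.12 and 0.24 in LCS/LCS and 0.38, 0.30 and 0.45 in wt. The G609G/G609G arrays lay apart, with a mean of 1.44 ± 0.09 in G609G/G609G against 0.38 ± 0.08 in wt (SD, n = 3 each), a difference of 1.06. Sirt1 minus Sirt6 was 1.37, 1.37 and 1.30 in G609G/G609G, -0.34, -0.31 and -0.17 in LCS/LCS and -0.10, -0.15 and 0.09 in wt. These contrasts were chosen after the values were seen and carry no test. Each describes unequal change of probe sets and not the amount of either transcript.

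**Figure D3:**
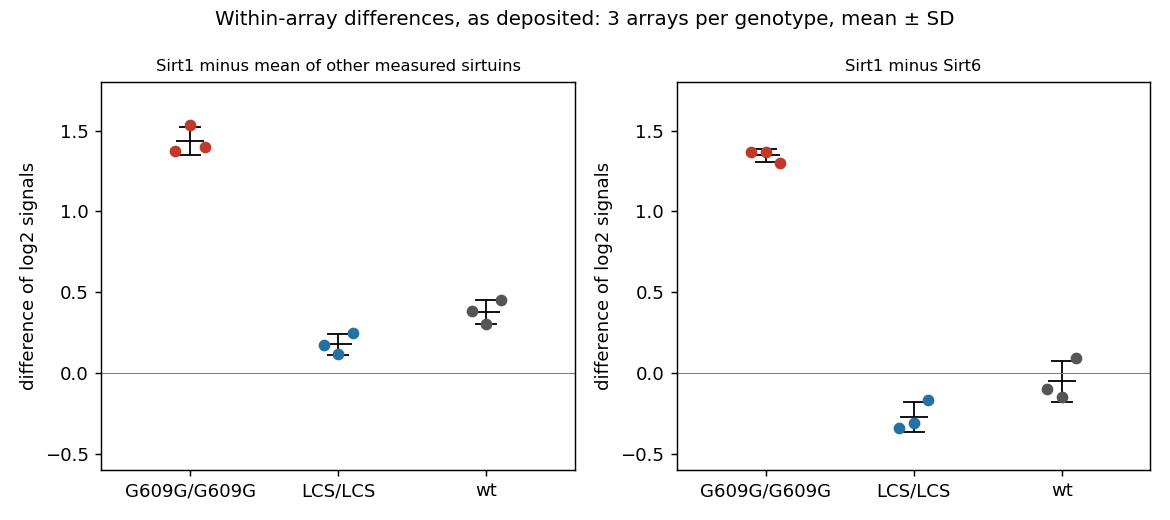
Sirt1 minus the mean of the other 5 sirtuins, and Sirt1 minus Sirt6, within each of the 9 arrays (log2, as deposited), by genotype; points are arrays, and bars are group means with their SD. The 3 G609G/G609G arrays lie between 1.38 and 1.53 on the first measure, and all LCS/LCS and wt arrays lie at 0.45 or below.

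In LCS/LCS fat no sirtuin passed the test against wt as deposited. Limma called 0 of 6 as deposited, where 12.8% of all genes were called higher and 9.77% lower, and 0 of 6 after quantile normalization, where 15.4% and 12.2% were. Sirt2 alone had an unadjusted p under 0.05 as deposited (change 0.15, SE 0.05, adjusted p = 0.0823), and none did after quantile normalization. The methods' t-test called Sirt2 after adjustment (adjusted p = 0.0455), as did limma after median centring (0.20, adjusted p = 0.00981), so its call depended on the method. The difference was -0.08 for Sirt1 (95% interval -0.26 to 0.11), 0.13 for Sirt3 (-0.06 to 0.31), 0.11 for Sirt5 (-0.14 to 0.35), 0.14 for Sirt6 (-0.05 to 0.34) and 0.10 for Sirt7 (-0.10 to 0.31). These intervals bound each difference and do not show that it is absent. The median change of the 6 was 0.12, against 0.03 over all genes.

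Between the mutants, all 6 sirtuins were called as deposited, 1 higher and 5 lower in G609G/G609G than in LCS/LCS, where 11.3% of all genes were called higher and 51.1% lower. After quantile normalization 1 was higher and 3 lower, against 27.8% and 29.5% of all genes. After median centring 1 was higher and 4 lower, where 6174 of 14860 genes were called higher and 4545 lower. Under all 3 scalings 1 was higher and 3 lower, where 1613 of the 14860 genes were higher and 3900 lower. Sirt1 was higher by 0.54 (SE 0.08, adjusted p = 0.000594) as deposited and by 1.02 after quantile normalization. Sirt6 changed by -1.08 (adjusted p = 1.21e-05) as deposited and by -0.54 after quantile normalization. Sirt3 was called lower under all 3 scalings, at -0.75, -0.44 and -0.37. Sirt5 was also called under all 3 (-0.70, -0.23 and -0.33), although its quantile-normalized groups overlapped and its adjusted p there ran from 0.0121 to 0.137 with 1 array left out. The call was lost without LCS/LCS replicate 1 or 3, G609G/G609G replicate 1 or 2, or wt replicate 2 or 3. Sirt2 was called as deposited (-0.55) and after median centring (-0.18) but not after quantile normalization (-0.09, adjusted p = 0.096), and Sirt7 was called only as deposited (-0.52). The comparisons share arrays, so they are not independent.

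The supply of NAD+ is set by the enzymes that make it. Of 17 measured NAD synthesis genes, 1 was called higher and 9 lower in G609G/G609G against wt as deposited, 3 and 4 with quantile normalization, and 1 and 3 under all 3 scalings. As deposited 10.5% of all genes were higher and 53.5% lower, the last near the share in this list. The counts with quantile normalization stand beside 28.5% and 29.5% of all genes, and those under all 3 scalings beside 10.2% and 25.5%. The 1 that rose throughout was Nampt, the rate-limiting enzyme of NAD+ salvage. It read 11.20, 11.19 and 11.20 in G609G/G609G, 9.51, 9.40 and 9.51 in LCS/LCS and 9.55, 9.57 and 9.55 in wt, so the G609G/G609G arrays stood apart. The change was 1.64 (SE 0.05, adjusted p = 9.23e-08), or 3.12-fold, on arrays whose 11 muscle markers were all higher, and muscle also expresses Nampt; that part was not tested. Nmrk1, a nicotinamide riboside kinase, fell by 0.89, and Nmnat1, the nuclear enzyme that completes NAD+, fell by 0.85. Ido1, which opens the route from tryptophan, read 6.63, 6.69 and 7.03 in G609G/G609G, 9.72, 9.72 and 9.73 in LCS/LCS and 11.31, 11.27 and 11.31 in wt. It was lower in both mutants, with a change of -4.51 in G609G/G609G and -1.57 in LCS/LCS. Ido1 is also known to be abundant in mouse epididymis, whose markers were lower in G609G/G609G in 9 of 10 cases, and in LCS/LCS 2 of 10 were lower and 4 higher; the part of that tissue was not tested. In LCS/LCS, Nampt did not pass the test (-0.08, adjusted p = 0.344), and Pnp, which frees nicotinamide from its riboside, rose by 0.47.

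Most genes that spend NAD+ or clear nicotinamide were called lower in G609G/G609G as deposited, as were 53.5% of all genes. Of 17 measured, 1 was called higher and 14 lower as deposited, 2 and 9 with quantile normalization, and 1 and 9 under all 3 scalings, with a median change of -0.80 beside -0.28 over all genes. Of all genes 29.5% were lower with quantile normalization and 25.5% under all 3 scalings. The shares called higher were 10.5% as deposited, 28.5% with quantile normalization and 10.2% under all 3. Parp1, the main DNA-damage-activated poly(ADP-ribose) polymerase, read 5.96, 6.06 and 6.17 in G609G/G609G, 7.15, 6.83 and 6.84 in LCS/LCS and 6.90, 7.01 and 7.13 in wt. Only the G609G/G609G arrays stood apart, with a change of -0.95 (SE 0.11, adjusted p = 0.000111). Aox1, an oxidase of nicotinamide metabolites, fell by 1.38, Parp16, of the endoplasmic reticulum, by 1.24 and Parp9 by 1.16. Nnmt, which methylates nicotinamide, rose in both mutants, by 0.36 in G609G/G609G and 0.37 in LCS/LCS as deposited. The sizes were alike only on that scale. After quantile normalization they were 0.77 in G609G/G609G and 0.32 in LCS/LCS, and after median centring 0.785 and 0.42. In LCS/LCS 3 genes were called higher and none lower, against 12.8% and 9.77% of all genes: Nnmt, Parp3 (0.69) and Parp9 (0.45). Cd38 was not analysed here.

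**Figure D4:**
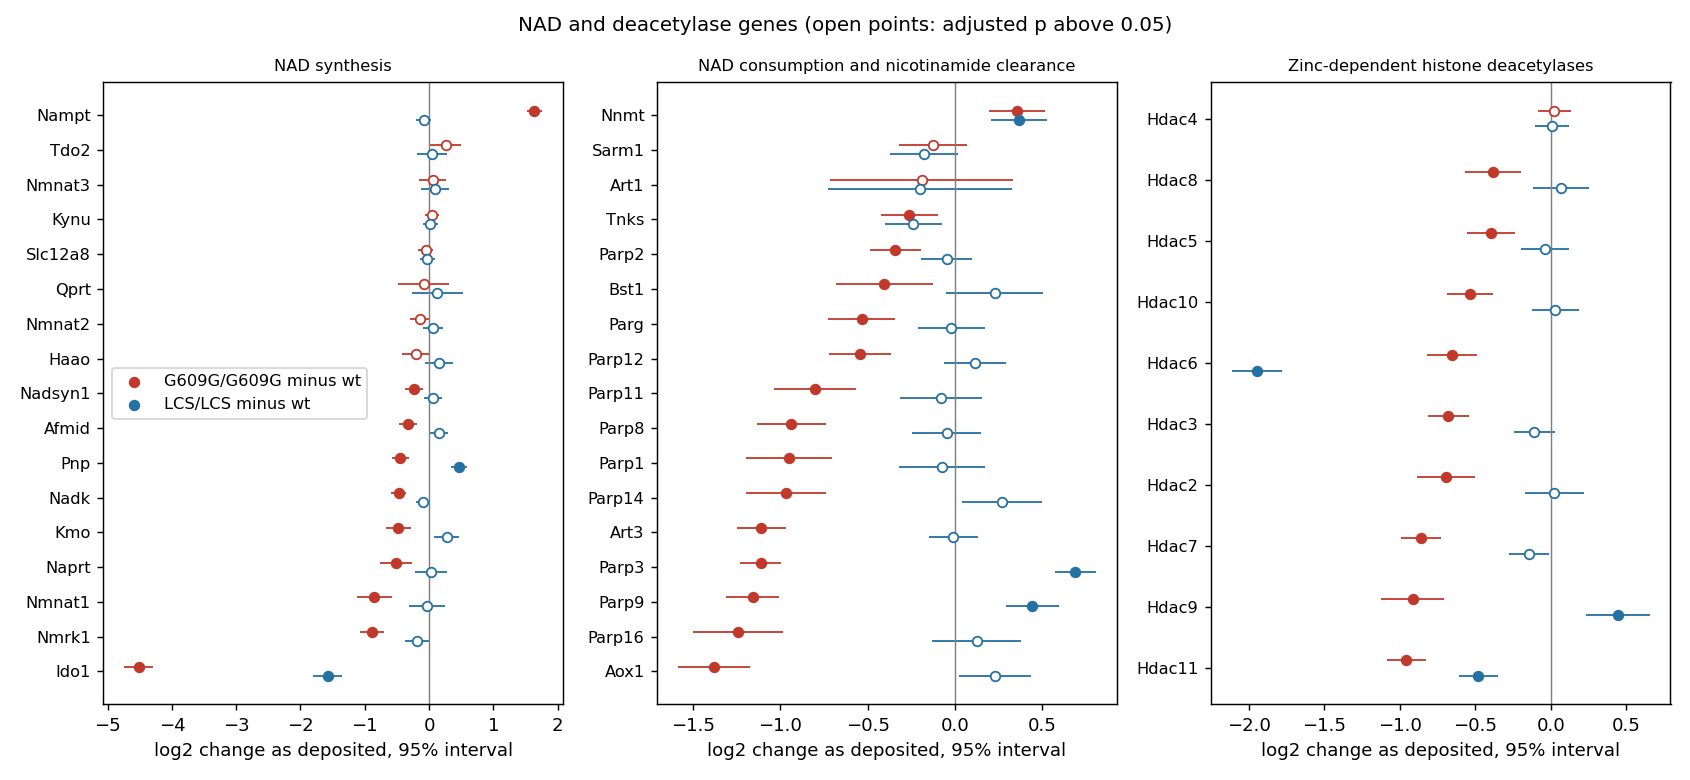
Log2 change against wt (as deposited) of each measured gene of NAD synthesis, of NAD consumption and nicotinamide clearance, and of the zinc-dependent histone deacetylases, in G609G/G609G and LCS/LCS; points are estimates, open where the adjusted p was above 0.05, and lines are 95% intervals. Nampt lies at 1.64 in G609G/G609G and -0.08 in LCS/LCS, and Ido1 lies at -4.51 and -1.57.

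Regulators of SIRT1 were measured for 15 genes, of which 3 were called higher and 8 lower in G609G/G609G as deposited, 10 and 3 with quantile normalization, and 3 and 2 under all 3 scalings. Of all genes 10.5% were higher and 53.5% lower as deposited, 28.5% and 29.5% with quantile normalization, and 10.2% and 25.5% under all 3. Prkaa2, a catalytic subunit of the energy sensor AMPK, rose by 1.30 while Prkaa1, the other catalytic subunit, fell by 0.63. Prkaa2 is the subunit abundant in muscle, whose 11 markers were all higher on these arrays; that part was not tested. Dyrk1a, a kinase that phosphorylates SIRT1, rose by 0.36, Setd7, a methyltransferase that binds it, by 0.26, and Hic1, a repressor of Sirt1 transcription, fell by 0.78. Ccar2, an inhibitor of SIRT1, had a change of -0.17 as deposited but 0.37 with quantile normalization and 0.26 with median centring, so its direction was not settled. In LCS/LCS, 3 regulators were called higher and 1 lower (12.8% and 9.77% of all genes), Hic1 and Setd7 among the higher (0.34 and 0.27).

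Among nuclear and cytosolic proteins known to be acted on by sirtuins, 7 of 27 genes were called higher and 12 lower in G609G/G609G as deposited, 14 and 7 with quantile normalization, and 7 and 6 under all 3 scalings, beside the same shares of all genes (10.5% and 53.5%, 28.5% and 29.5%, and 10.2% and 25.5%). Ppargc1a, the gene of PGC-1alpha, read 8.99, 8.93 and 9.12 in G609G/G609G, 7.26, 7.06 and 7.07 in LCS/LCS and 7.92, 7.86 and 7.93 in wt. The mutants lay on opposite sides of wt, with changes of 1.11 in G609G/G609G and -0.77 in LCS/LCS. Foxo1, a transcription factor of fasting, rose by 0.67 in G609G/G609G and 0.29 in LCS/LCS, and Arntl, of the circadian clock, by 1.48 and 0.34. Tuba4a, an alpha-tubulin, rose by 1.81 in G609G/G609G, while Pck1, of glyceroneogenesis, fell by 1.30, Srebf1, of lipid synthesis, by 1.18 and Wrn, a helicase, by 0.997. Muscle also expresses Ppargc1a, Foxo1 and Tuba4a, and all 11 muscle markers were higher in G609G/G609G; that part was not tested.

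Among mitochondrial targets, 3 of 24 genes were called higher and 15 lower in G609G/G609G as deposited, but 13 and 4 after quantile normalization, and 3 and 4 were called under all 3 (10.2% and 25.5% of all genes). The calls over all genes moved the same way, with 10.5% higher and 53.5% lower as deposited and 28.5% and 29.5% after quantile normalization. Slc25a4, an ATP/ADP carrier abundant in muscle, rose by 0.55 and Glud1, glutamate dehydrogenase, by 0.49. Shmt2, of mitochondrial one-carbon metabolism, fell in both mutants, by 1.01 in G609G/G609G and 0.87 in LCS/LCS as deposited. Quantile normalization turned that order, with changes of -0.48 and -0.85, and so did median centring (-0.585 and -0.815). Ide and Acadm, a medium-chain fatty acid dehydrogenase, fell by 0.80 and 0.71 in G609G/G609G. Acss1, an acetate-activating enzyme of mitochondria, rose by 0.77 in LCS/LCS and by 0.23 in G609G/G609G, where its groups overlapped as deposited. After quantile normalization it rose by 0.77 in each mutant, and after median centring by 0.82 in LCS/LCS and 0.655 in G609G/G609G.

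The zinc-dependent histone deacetylases, which need no NAD+, were also mostly called lower in G609G/G609G as deposited. Of 10 measured, none was called higher and 9 were lower, where 53.5% of all genes were lower. After quantile normalization 1 was higher and 6 were lower (28.5% and 29.5% of all genes), and 6 were lower under all 3 scalings (25.5% of all genes). The median change as deposited was -0.67, beside -0.51 for the sirtuins and -0.28 over all genes. Hdac11 fell by 0.96, Hdac9 by 0.92 and Hdac7 by 0.86. Of 9 lysine acetyltransferases, the enzymes that add the groups, 6 were lower as deposited, none was called higher, and 2 were lower under all 3 scalings, Atat1 (-1.54) and Kat2a (-1.03). After quantile normalization 5 of the 9 were called higher and 2 lower. Of all genes 53.5% were lower as deposited, 28.5% higher and 29.5% lower with quantile normalization, and 25.5% lower under all 3.

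The genes whose deposited signal was most like each sirtuin were ranked by Pearson r over the 9 arrays of all 3 genotypes. Differences between genotypes and in array level enter r, so it is a description with no p. The genes most like Sirt1 were Pi4k2b (0.989), Ubfd1 (0.984) and Dyrk1a (0.983). Sirt6 was most like Synrg (0.996), Lrrc17 and Asns (0.995 each), and Sirt2 was most like Eml3, Plxnd1 and Nrep (0.999 each). Sirt3 was most like Lrrc61, Tomm40l (0.997 each) and Tsc22d4 (0.995), Sirt5 was most like Malt1, Men1 and Gatb (0.994 each), and Sirt7 was most like Samd9l (0.993), Taok3 (0.992) and Ddx1 (0.988). After quantile normalization Pi4k2b and Dyrk1a stayed among the 3 genes most like Sirt1, as did Synrg for Sirt6, Gatb for Sirt5 and Ddx1 for Sirt7.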

How the data were processed

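Expression in perigonadal white adipose tissue was measured on 9 Affymetrix exon arrays at gene level, 3 per genotype, with groups and replicate numbers from the sample titles. The deposited values are taken as log2 signals from their range, since no header states the scale; the build mm9 is per the submitters' processing notes, and background correction, summarisation and scaling by the authors are not given in the sources used here. In all the table holds 23332 probe sets; 14996 had 1 gene symbol in the probe annotation, 1019 several and 7317 were not listed.

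All probe sets were fitted with limma 3.58.1 in R 4.3.3 (1 mean per genotype, two-sided, eBayes), with p-values adjusted by Benjamini-Hochberg over 23332 probe sets; called means an adjusted p of 0.05 or less. Changes are differences of log2 means, first-named genotype minus the other, with n = 3 arrays per group, a number that limits their precision. Scripts were tested on simulated data. Alternatives were quantile normalization, median centring, a replicate block, fits of 2 genotypes only, trended and robust moderation, array weights, a filter on dim probe sets, a fold minimum of 1.5, the methods' t-test, the mean over a gene's probe sets, and leaving out each array.

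The members and lists were chosen with earlier results of these data known. The text names all sirtuins, up to 3 called members per direction from each list and comparison by size of change, a few fixed genes (Nampt, Nnmt, Parp1, Cd38, Ppargc1a, Foxo1, Ccar2, Lmna), and the 3 genes most like each sirtuin whose genotype means span at least 0.5. Tables were prepared with Python 3.11.15 and pandas 2.3.3. Promoter sequences and symbols came from RefSeq tables on GRCm38.p6, used for gene names and the promoter windows only.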

Additional observations from a re-analysis of the deposited data

How the results depend on the processing

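The count of sirtuins called in G609G/G609G against wt, 6 as deposited, was 3 after quantile normalization, 2 after median centring, 3 with a minimum fold of 1.5 added and 3 by the methods' t-test with that fold. In LCS/LCS against wt it was 0, and 1 after median centring, with trended and robust moderation, with array weights and by the methods' t-test after adjustment, in each case Sirt2. Between the mutants it was 6, and 3 with the fold and 3 by the methods' t-test with fold. The F test called 6, and 3 after quantile normalization. Of 119 other pathway genes, 88 were called in G609G/G609G against wt (64.0% of all genes were called there), 42 with the fold and 42 by the methods' t-test with fold; 25 in LCS/LCS against wt (22.5% of all genes), 39 with array weights, 7 with the fold and 7 by the methods' t-test with fold; and 83 between the mutants (62.3% of all genes), 43 with the fold and 43 by the t-test with fold. The split into higher and lower calls moved with scaling: as deposited 15 of these genes were higher and 73 lower in G609G/G609G against wt, quantile normalization made that 48 and 35, and median centring 54 and 33. Leaving out 1 array in turn gave 15 to 29 pathway genes and 2669 to 4805 probe sets in LCS/LCS against wt, both lowest without LCS/LCS replicate 3 (25 and 4005 with all arrays). Probe sets called were 12307 in G609G/G609G against wt, 6934 with the fold and 6650 by the methods' t-test with fold; 4005 in LCS/LCS against wt, 6511 with array weights, 1385 with the fold and 1487 by the t-test with fold; and 12147 between the mutants, 7184 with the fold and 6933 by the t-test with fold.

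Directions turned for Sirt2 in G609G/G609G against wt (0.022 after median centring), for Sirt7 there (0.11 after quantile normalization and 0.012 after median centring) and for Sirt7 between the mutants (0.0046 after quantile normalization). With quantile normalization repeated without each array, an alternative chosen after the data were seen, the change of Sirt2 in G609G/G609G against wt ran from -0.021 to 0.019 and that of Sirt7 between the mutants from -0.058 to 0.066. The cause was not tested. Samples of the same replicate number correlated in their deviations from group means by -0.07 to 0.23. In 9 of 18 checks, each a choice among 3 numbers, a sample matched best with its own number. These checks do not settle whether the numbers are pairs, and the main fit did not take them as pairs. With the replicate block 6, 0 and 6 sirtuins were called, as without it. The mean over a gene's probe sets could not change a sirtuin, since each has 1. The fit of 2 genotypes was not run for the F test, nor the fold and the methods' t-test.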

Other observations

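Among enzymes that set tubulin acetylation, which Sirt2 also removes, Hdac6, a tubulin deacetylase of the zinc-dependent class, read 8.57, 8.60 and 8.66 (log2) in G609G/G609G, 7.44, 7.20 and 7.31 in LCS/LCS and 9.28, 9.20 and 9.31 in wt. It was lower in both mutants, with a change of -0.65 in G609G/G609G and of -1.95 in LCS/LCS (SE 0.07, limma adjusted p = 1e-06). Atat1, the tubulin acetyltransferase, was lower in G609G/G609G (change -1.54, adjusted p = 1.32e-06), and its change in LCS/LCS was -0.20. The changes of Hdac6 in these mutants were -0.24 and -2.00 with quantile normalization, and -0.23 and -1.90 with median centring. The summed testis and germ cell markers had the same order of genotypes as Hdac6. They were 9547 to 10375 in wt, 4548 to 4674 in G609G/G609G and 1007 to 1119 in LCS/LCS. The part of that tissue was not tested.

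Lmna itself read 7.08, 7.27 and 7.04 in G609G/G609G, 7.59, 7.49 and 7.64 in LCS/LCS and 7.64, 7.57 and 7.60 in wt. Its change in G609G/G609G was -0.47 as deposited (adjusted p = 0.000781) and 0.06 after quantile normalization (adjusted p = 0.617). This probe set reads the gene as a whole and cannot tell its allele products apart.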
